A study of Rattus norvegicus with 33 samples.

Results

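Interferon-stimulated genes are described here by 9 members measured in rat soleus: the transcription factors Irf7 and Irf1, the ubiquitin-like modifier Isg15, the antiviral GTPases Mx1 and Mx2, the RNA-binding proteins Ifit2 and Ifit3, the 2-5A synthetase Oas1a and the enzyme viperin, encoded by Rsad2. They were taken by symbol, as the array rows that carry 1 gene symbol, with the brightest row kept for each gene. All 9 were found, each with a single row, among 14506 genes. The arrays came from 33 female Wistar rats, 1 array per animal, in 11 groups of 3. In the first experiment (15 arrays), SCI animals had the spinal cord cut, and later the left gastrocnemius tendon cut and the surgery for a nerve stimulator but no stimulator. SCI-ES animals had the same operations with a working stimulator and received electrical stimulation (ES) for 1, 3 or 7 days, and Sham-SCI animals had a laminectomy only. SCI versus Sham-SCI therefore holds the transection, the tenotomy and the implantation surgery together, and their effects cannot be told apart. In the second experiment (18 arrays), gastrocnemius ablation (GA) by cutting the distal tendon on the left, which overloads the soleus, was compared at 1, 3 and 7 days with Sham-GA animals operated on without the cut. These GA and Sham-GA animals had no spinal surgery. Whole muscle was used, so a change in RNA per cell and a change in the number of cells of a type cannot be told apart.

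As background, interferons are secreted proteins that cells release when they sense viral nucleic acid or damage. Type I interferons act through a receptor and the kinases Jak1 and Tyk2, and their signal reaches the interferon-stimulated response element (ISRE) in front of many antiviral genes. Interferon gamma acts mainly at the gamma-activated site (GAS). Irf7 amplifies type I interferon production and Irf1 is an early target of interferon gamma, and both factors can also bind ISRE-like sites. In muscle this program is best known from viral infection and from inflammatory muscle disease, and infiltrating leukocytes as well as muscle fibers can express it.

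Promoter windows of 300 bases, 250 before to 50 after each start site, were found in the RefSeq table for 6 of the 9 genes (Irf7, Irf1, Mx1, Ifit3, Oas1a and Rsad2; build GRCr8). The stretches below are shown because they hold the element through which interferons are known to act, with the match in capitals and each stretch printed 5′ to 3′ on the strand of its gene. The ISRE core was searched as GAAANNGAAA and the GAS as TTCNNNGAA, on both strands. The first 3 matches are the ISRE core on the opposite strand, the fourth is a GAS, and the last holds a pair of overlapping ISRE cores.
Irf7 (chr1:205800058-205800117, minus strand): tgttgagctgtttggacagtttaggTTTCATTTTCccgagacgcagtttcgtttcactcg
Ifit3 (chr1:241527257-241527316, plus strand): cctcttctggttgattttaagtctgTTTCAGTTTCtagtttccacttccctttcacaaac
Rsad2 (chr6:48788233-48788292, minus strand): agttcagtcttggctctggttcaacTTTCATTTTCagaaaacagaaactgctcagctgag
Irf1 (chr10:38417767-38417826, plus strand): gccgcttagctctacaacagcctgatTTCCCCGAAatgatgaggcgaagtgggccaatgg
Oas1a (chr12:41330403-41330462, plus strand): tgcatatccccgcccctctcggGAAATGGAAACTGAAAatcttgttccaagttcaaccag

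The ISRE core was present in 4 of the 6 windows and in 3.92% of all 33469 windows. Its matches began 69 bases before the start site in Irf7, 44 bases before it in Ifit3, 147 bases before it in Rsad2, and 41 and 35 bases before it in Oas1a. The GAS was present in 2 of the 6 windows, Irf1 (142 bases before the start site) and Oas1a (199 bases before it), and in 8.87% of all windows. The Mx1 window held neither run of letters. These matches describe the sequence only.

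Values are log2 expression values, so a difference of 1 is a 2-fold difference. Over 33 arrays the mean levels ran between 5.22 for Mx1 and 7.84 for Irf1. Levels of different genes come from different probes and were not ranked against each other. Isg15, Mx1, Ifit3 and Oas1a had means below 6.05, the 95th percentile of 53 olfactory receptor genes, which soleus is not expected to express, so the low values of these 4 genes lie near the arrays' background. Markers of skeletal muscle fibers (12 genes) had mean levels of 12.12 to 13.45 on the 33 arrays, against 4.70 to 5.18 for 8 markers of liver and brain. The arrays' medians over all rows lay between 6.45 and 6.54.

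**Figure D1:**
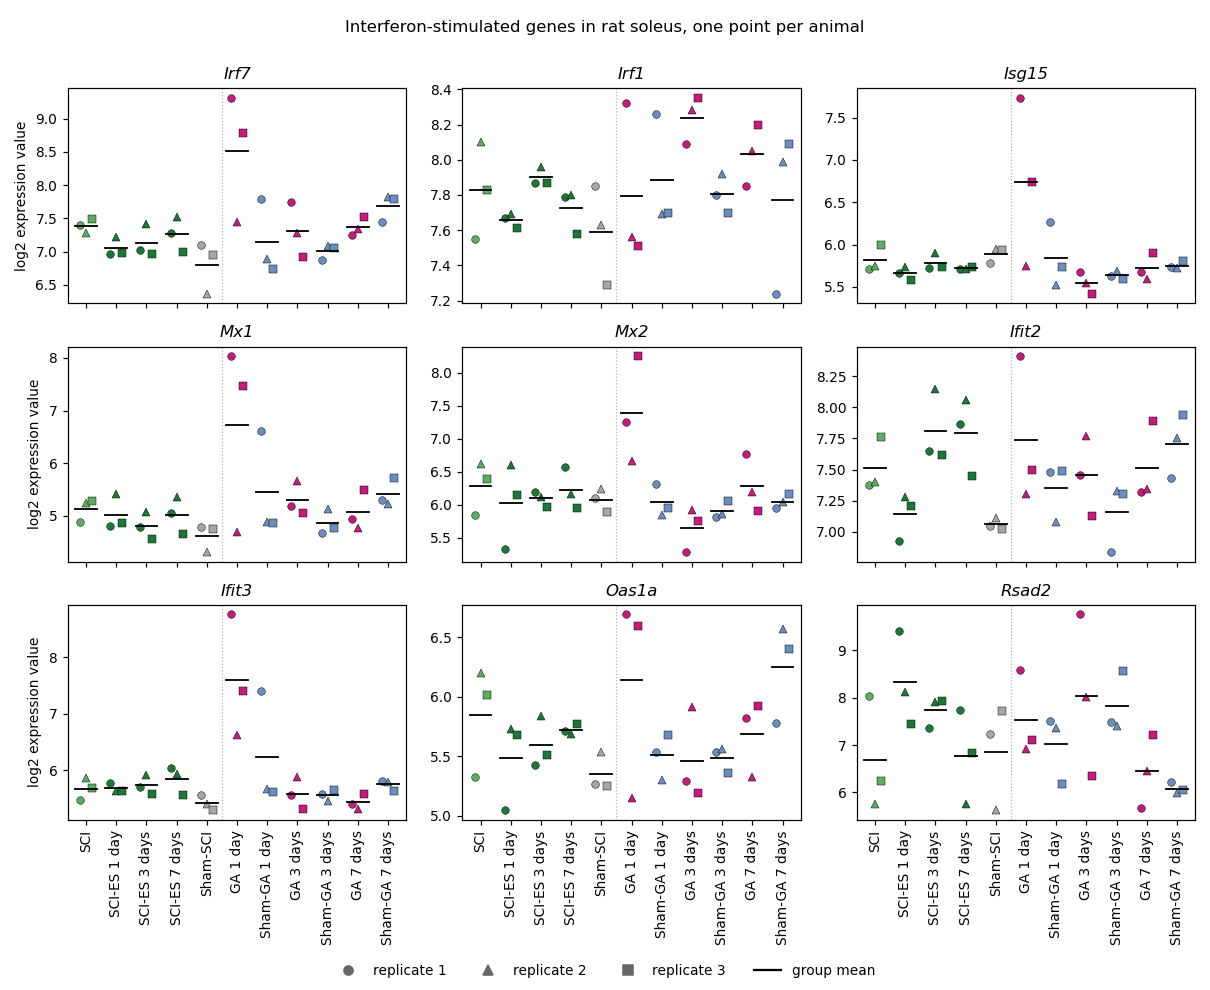
Log2 expression value (vertical axes, each with its own range) of the 9 genes in the 11 groups (horizontal axes). Each point is 1 animal, with the shape giving the replicate number, and bars are group means. For Irf7, Isg15 and Mx1 the highest values were in GA 1 day replicates 1 and 3, while Rsad2 ranged widely in most groups.

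The highest group mean was that of GA 1 day for 5 of the 9 genes. Irf7 averaged 8.51 ± 0.962 in GA 1 day (SD, n = 3) and Sham-GA 7 days was next, at 7.69. Mx1 averaged 6.73 ± 1.78, Ifit3 7.60 ± 1.08, Isg15 6.74 ± 0.987 and Mx2 7.39 ± 0.802 in the same group. The lowest group mean was that of Sham-SCI for Irf7, Irf1, Mx1, Ifit2, Ifit3 and Oas1a. Irf1 was highest in GA 3 days (8.24), Ifit2 in SCI-ES 3 days (7.81), Oas1a in Sham-GA 7 days (6.25) and Rsad2 in SCI-ES 1 day (8.33). When the 11 groups were ordered by mean, all 10 pairs of neighbors overlapped for every gene but Mx2, where 9 of 10 did. The within-group SD was also largest in GA 1 day for 7 genes, all but Irf1 and Rsad2. For Mx1 it was 1.78 there, against a median SD of 0.322 over the 11 groups.

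The early effect of overload was examined by comparing GA 1 day with Sham-GA 1 day. Levels of most members were higher in GA, but the 3 animals of each group were unlike one another, and no member passed the threshold of a Benjamini-Hochberg adjusted p under 0.05 with at least 1.5 fold in limma. Of the 9 members 0 were called, where 0.0554% of all 14451 genes tested were called, and 1 was called with the methods' test across groups (Mx2), which uses an unadjusted p and called 6.16% of the 7226 genes it was run on. An unadjusted p under 0.05 was reached by 4 of 9 members (Irf7, Mx2, Ifit3 and Isg15) and by 13.7% of all genes. The log2 fold change was above 0 for 8 of 9 members and for 48.2% of all genes, with a median of 0.90 over the members and -0.01 over all genes.

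Irf7, the factor that amplifies interferon production, had 9.31, 7.44 and 8.78 in GA animals 1, 2 and 3, against 7.79, 6.89 and 6.74 in the Sham-GA animals. GA replicates 1 and 3 lay above every Sham-GA animal and replicate 2 fell among them. The difference was 2.59-fold (log2 fold change 1.37, SE 0.367, unadjusted p = 0.00191, adjusted p = 0.145). Irf1, the factor linked to interferon gamma, had 8.32, 7.56 and 7.51 in GA and 8.26, 7.69 and 7.70 in Sham-GA, so that replicate 1 was the high animal in both groups and the groups overlapped (log2 fold change -0.08, SE 0.236, adjusted p = 0.918).

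Among the effectors, Mx2 was the member with no overlap between groups, a pattern seen in 1 of 9 members and in 16.6% of all genes. This dynamin-like GTPase had 7.26, 6.66 and 8.25 in GA, against 6.32, 5.85 and 5.95 in Sham-GA (2.55-fold, log2 fold change 1.35, SE 0.308, unadjusted p = 5.0e-04, adjusted p = 0.122). Mx1, which blocks the growth of influenza-like viruses in rodents, had 8.03, 4.70 and 7.46 in GA, against 6.61, 4.89 and 4.86 in Sham-GA. The lowest of these 6 values belonged to a GA animal, and the GA animals spanned 10.1-fold (log2 fold change 1.28, SE 0.633, adjusted p = 0.39). Ifit3, which with its relatives binds viral RNA, had 8.76, 6.63 and 7.41 in GA, against 7.41, 5.67 and 5.62 in Sham-GA. The log2 fold change was 1.37 (SE 0.454, adjusted p = 0.216), and Sham-GA replicate 1 was level with GA replicate 3. This SE, like the others of this experiment, comes from a single spread per gene shared by all 6 groups. The SD of Ifit3 was 1.08 in GA 1 day and 1.02 in Sham-GA 1 day, against a median of 0.163 over the 11 groups. SEs and p values at 1 day are thus likely too small for genes whose spread was largest there.

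Isg15, a ubiquitin-like protein that is attached to other proteins, had 7.73, 5.75 and 6.74 in GA, against 6.27, 5.52 and 5.74 in Sham-GA (log2 fold change 0.90, SE 0.327, adjusted p = 0.253). Oas1a, which makes the 2-5A signal that activates RNase L, had 6.69, 5.15 and 6.59 in GA, against 5.54, 5.30 and 5.68 in Sham-GA (log2 fold change 0.63, SE 0.332, adjusted p = 0.416). In both genes GA replicate 2 lay within or below the range of the sham animals. Ifit2 had 8.41, 7.30 and 7.50 in GA and 7.48, 7.08 and 7.49 in Sham-GA, where only GA replicate 1 stood apart (log2 fold change 0.38, SE 0.266, adjusted p = 0.557). Rsad2, whose protein viperin makes a nucleotide that stops viral RNA synthesis, had 8.59, 6.91 and 7.10 in GA and 7.51, 7.36 and 6.17 in Sham-GA, which overlapped (log2 fold change 0.52, SE 0.685, adjusted p = 0.794).

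**Figure D2:**
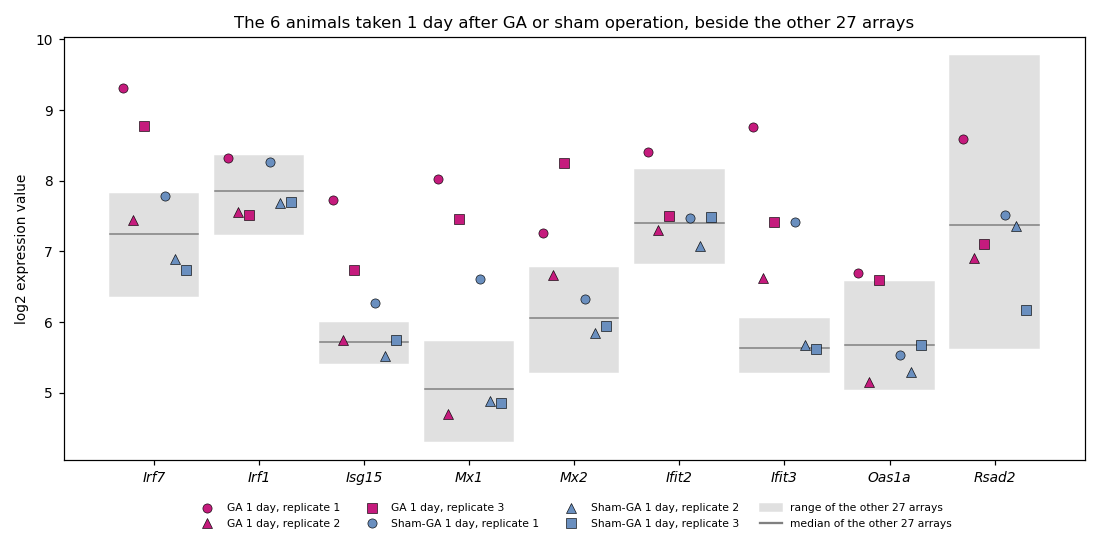
Log2 expression value (vertical axis) of the 9 genes (horizontal axis) in the 6 animals taken 1 day after GA or sham operation. Gray boxes span the other 27 arrays and gray lines are their medians. GA replicate 1 was above the box for 7 genes, GA replicate 3 for 6, Sham-GA replicate 1 for 3 and GA replicate 2 for 1.

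The animals of day 1 were next set against the other 27 arrays of both experiments. GA 1 day replicate 1 exceeded all 27 in 7 of 9 members, against 10.8% of all 14453 genes on that array, and had the highest of the 33 values in 6 members. GA 1 day replicate 3 exceeded all 27 in 6 members (7.8% of all genes), and Sham-GA 1 day replicate 1 did so in 3, Isg15, Mx1 and Ifit3 (11.2% of all genes). GA 1 day replicate 2 did so in 1, Ifit3 (6.8% of all genes), and Sham-GA replicates 2 and 3 in 0 (3.39% and 4.1% of all genes). The level was thus high in animals of both groups. Isg15 ranged only between 5.42 and 5.99 on the other 27 arrays and Ifit3 between 5.30 and 6.05, so that both genes lay near background outside day 1. Irf1 and Rsad2 exceeded the range of the other 27 arrays in 0 of the 6 animals.

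Which members were called depended on single animals. Without GA 1 day replicate 2, 4 members were called, Irf7 (log2 fold change 1.91, adjusted p = 0.00859), Isg15 (1.39, adjusted p = 0.0221), Mx1 (2.29, adjusted p = 0.0326) and Mx2 (1.72, adjusted p = 0.0151), and 0.346% of all genes were called in that fit. Without Sham-GA 1 day replicate 1, 3 were called, Irf7 (1.69, adjusted p = 0.0486), Mx2 (1.49, adjusted p = 0.0496) and Ifit3 (1.96, adjusted p = 0.0334), and 1.26% of all genes were. Without any 1 of the other 4 animals 0 were called, and the adjusted p of Irf7 was up to 0.538.

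Among the 6 animals of day 1, the mean levels of neutrophil and of macrophage markers were also highest in GA replicates 1 and 3 and Sham-GA replicate 1. Not every marker had this order. The neutrophil markers Camp and Elane were highest in GA replicate 2 (5.98 and 6.15). The mean level of 11 neutrophil markers was 7.05, 6.30 and 6.76 in GA 1 day replicates 1, 2 and 3, against 6.68, 5.59 and 5.44 in Sham-GA, and 5.24 to 6.14 in the other 9 groups. Of these 11 markers 10 were above 0 in GA versus Sham-GA at 1 day (median log2 fold change 0.52, 0 called), between -0.01 for Fcgr3a and 2.14 for Cxcr2, a chemokine receptor of neutrophils. The mean level of 14 macrophage markers was 9.62, 9.16 and 9.32 in GA, against 9.69, 8.54 and 8.66 in Sham-GA, with 11 of 14 above 0 and 0 called. The 3 below 0 were C1qa (-0.14), C1qb (-0.69, SE 0.281, adjusted p = 0.305) and C1qc (-0.34). C1qb had 8.26, 8.50 and 8.16 in GA, against 8.55, 9.12 and 9.33 in Sham-GA. In GA 3 days the macrophage markers had mean levels of 9.57 to 10.04. Group means of Irf7, Isg15, Mx1, Mx2, Ifit2, Ifit3 and Oas1a were lower there than in GA 1 day. Those of Irf1 (8.24 against 7.80) and Rsad2 (8.04 against 7.53) were higher. None of the markers was at 0, a value that these arrays do not give. The part of infiltrating cells in the levels of the 9 genes was not tested. Markers of T and NK cells (16 genes) had mean levels of 6.24, 5.99 and 6.25 in GA, against 6.39, 5.83 and 5.78 in Sham-GA, and those of dendritic cells (7 genes) lay between 5.76 and 6.10 in the 6 animals.

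**Figure D3:**
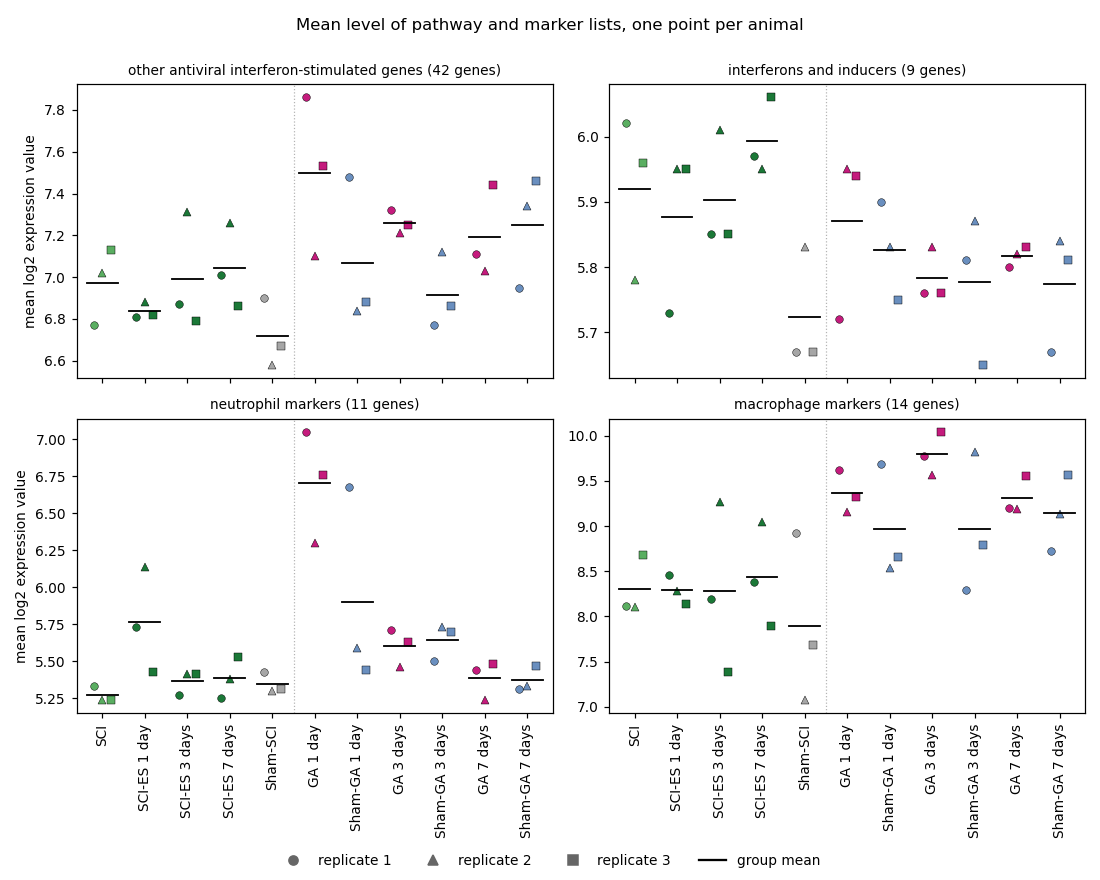
Mean log2 expression value (vertical axes, each with its own range) of 4 lists in the 11 groups (horizontal axes), 1 point per animal with the shape giving the replicate number and bars for group means. Other antiviral genes and neutrophil markers were highest in GA 1 day replicate 1, at 7.86 and 7.05. The mean of the interferons and their inducers was 5.72 in that animal and highest, at 6.06, in SCI-ES 7 days replicate 3.

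Other genes of the pathway were read from lists, 118 genes in all, of which 0 were called in GA versus Sham-GA at 1 day (0.0554% of all genes). An unadjusted p under 0.05 was reached by 21 (13.7% of all genes), and 81 were above 0 (48.2% of all genes, median log2 fold change 0.18). The members' closest relatives, 42 other antiviral genes, were above 0 in 32 (median 0.27), between -0.18 for the GTPase Igtp and 2.43 for Slfn4, a Schlafen gene known from myeloid cells of the mouse. Slfn4 had 10.62, 8.34 and 9.56 in GA, against 9.17, 6.22 and 5.84 in Sham-GA, and 5.17 to 7.11 on the other 27 arrays (SE 0.742, adjusted p = 0.188). Unlike Mx1, it was high in GA replicate 2 as well. The 9 interferons and inducing cytokines that could be matched were above 0 in 6 (median 0.06), between -0.65 for Il15 and 0.71 for Il18. Il18 had 7.93, 7.18 and 7.80 in GA, against 8.86, 5.88 and 6.05 in Sham-GA. Il15 had 6.94, 7.52 and 7.20 in GA, against 7.47, 7.89 and 8.24 in Sham-GA. Ifnb1 had 4.75, 4.93 and 4.83 in GA, against 4.52, 4.93 and 4.70 in Sham-GA, all within the 4.50 to 5.25 of the other 27 arrays, levels that lie near the arrays' background. STAT and IRF factors outside the members were above 0 in 7 of 8, between -0.33 for Irf3 and 0.91 for Irf8. Nucleic acid sensors were above 0 in 8 of 12, between -0.68 for Mavs and 0.94 for Tlr7. Negative regulators were above 0 in 5 of 9, between -0.21 for Nlrx1 and 0.95 for Usp18, which removes Isg15 from proteins. Antigen presentation genes were above 0 in 15 of 23, between -0.52 for Psme2 and 0.80 for Psmb8. Receptors and kinases were above 0 in 3 of 6, between -0.24 for Ifngr2 and 0.22 for Ifngr1. Interferon-induced chemokines and cytokines were above 0 in 5 of 10, between -0.78 for Tnfsf10 and 0.97 for Ccl7.

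Time after GA was examined next. At 3 days 0 members were called, as were 0% of all genes, and an unadjusted p under 0.05 was reached by 0 members and 16.5% of all genes. Irf1 had 8.09, 8.28 and 8.35 in GA 3 days, against 7.80, 7.92 and 7.70 in Sham-GA 3 days. These groups did not overlap, a pattern of 1 member in 9 and of 13.5% of all genes (log2 fold change 0.43, SE 0.236, adjusted p = 0.347). Irf7 had 7.75, 7.28 and 6.92 in GA 3 days, against 6.88, 7.08 and 7.05 in Sham-GA 3 days, which was 1.25-fold (adjusted p = 0.635), and Mx2 was 0.838-fold (adjusted p = 0.653). Of the other pathway genes 96 of 118 were above 0 (44.8% of all genes, median 0.24), with 24 at an unadjusted p under 0.05 (16.5% of all genes) and 0 called.

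At 7 days 0 members and 0% of all genes were called in GA versus Sham-GA, and 0 members and 2.63% of all genes had an unadjusted p under 0.05. Ifit3 had 5.41, 5.32 and 5.59 in GA 7 days, against 5.82, 5.80 and 5.64 in Sham-GA 7 days. It was the 1 member without overlap, as were 11.2% of all genes, with the GA animals lower (log2 fold change -0.31, SE 0.454, adjusted p = 0.999). This shared SE takes in the wide spread of the day 1 animals. The SD of Ifit3 was 0.138 in GA 7 days and 0.0983 in Sham-GA 7 days, so its SE and p here are likely too large. Oas1a had 5.82, 5.33 and 5.92 in GA 7 days, against 5.78, 6.57 and 6.40 in Sham-GA 7 days (log2 fold change -0.56, adjusted p = 0.999). The methods' test also called 0 members at 3 and at 7 days. In limma with all arrays no member passed the threshold at 1, 3 or 7 days.

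The change of the GA effect with time was tested as a difference of differences. The effect at 3 days was below that at 1 day for 8 of 9 members, with a median difference of -0.84 against -0.00 over all genes. Of the members 2 had an unadjusted p under 0.05 (9.67% of all genes), Mx2 (-1.61, SE 0.435, adjusted p = 0.45) and Isg15 (-0.98, SE 0.462, adjusted p = 0.516), and 0 were called (0% of all genes). At 7 days against 1 day 8 of 9 members were again below 0 (median -1.11 against 0.01), 4 had an unadjusted p under 0.05 (8.26% of all genes) and 0 were called (0% of all genes). They were Irf7 (-1.69, SE 0.519, adjusted p = 0.409), Ifit3 (-1.68, SE 0.643, adjusted p = 0.509), Mx2 (-1.11, SE 0.435, adjusted p = 0.509) and Oas1a (-1.19, SE 0.47, adjusted p = 0.509). Irf1 was the 1 member above 0 in both tests. Averaged over the 3 days, the GA effect was above 0 for 9 of 9 members (45.8% of all genes), 0 were called (0% of all genes) and 2 had an unadjusted p under 0.05 (19.3% of all genes), Irf7 (log2 fold change 0.46, SE 0.212, adjusted p = 0.255) and Mx2 (0.44, SE 0.178, adjusted p = 0.213).

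The sham operation itself was followed over days in the Sham-GA groups. At 3 days versus 1 day 0 members were called (0% of all genes), and 0 had an unadjusted p under 0.05 (5.43% of all genes). At 7 days versus 1 day 6.57% of all genes were called, 500 upward and 449 downward, but 0 of 9 members. Of the members 1 had an unadjusted p under 0.05, where 24.8% of all genes did. It was Oas1a, with 5.78, 6.57 and 6.40 in Sham-GA 7 days, against 5.54, 5.30 and 5.68 in Sham-GA 1 day (log2 fold change 0.74, SE 0.332, adjusted p = 0.178). Outside the members 6 of 118 pathway genes were called, where 6.57% of all genes were. An unadjusted p under 0.05 was reached by 29 of the 118, where 24.8% of all genes reached it. The antiviral gene Ifi44 (log2 fold change 0.68, adjusted p = 0.0349), the double-stranded RNA sensor Tlr3 (0.78, adjusted p = 0.00869) and the class II gene RT1-Db1 (0.86, adjusted p = 0.0389) rose. The kinase Jak2 (-0.98, adjusted p = 0.0162), the phosphatase Ptpn2, which restrains STAT signaling (-1.06, adjusted p = 0.0081), and Stat3 (-0.59, adjusted p = 0.00857) fell. In this comparison 8 of 10 fibroblast markers and 3 of 14 macrophage markers rose as well, and their part in these values was not tested.

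**Figure D4:**
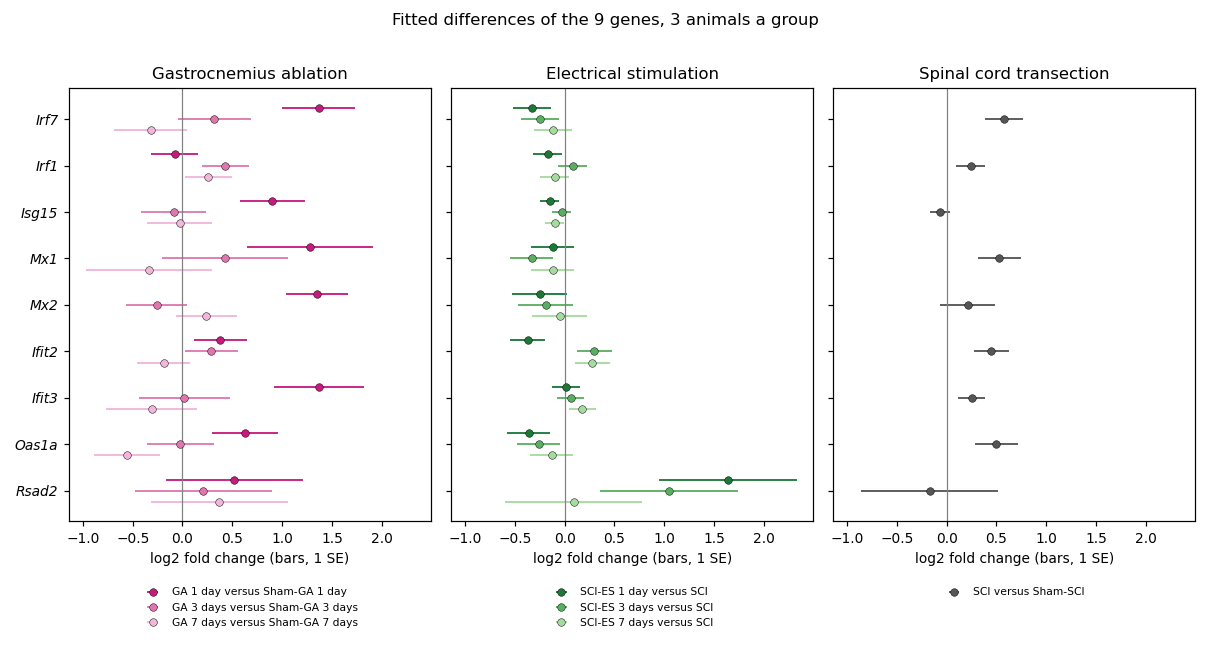
Log2 fold change (horizontal axes) of the 9 genes (vertical axis) in 7 comparisons, with bars of 1 SE on each side of the fitted value and 3 animals a group. The 1-day GA values of Irf7, Ifit3, Mx2 and Mx1 lay between 1.28 and 1.37, whereas all ES values other than those of Rsad2 lay between -0.37 and 0.30.

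Spinal cord transection was compared with laminectomy alone. In SCI versus Sham-SCI 0 members were called, where 0.401% of 14456 genes were, and 4 of 9 had an unadjusted p under 0.05, where 14.6% of all genes had. Of the members 7 were above 0 (46.2% of all genes), with a median log2 fold change of 0.25 against -0.02 over all genes. Irf7 had 7.40, 7.28 and 7.49 in SCI, against 7.10, 6.37 and 6.95 in Sham-SCI, which was 1.49-fold (log2 fold change 0.58, SE 0.19, unadjusted p = 0.00909, adjusted p = 0.179). Ifit2 had 7.38, 7.40 and 7.76 in SCI, against 7.05, 7.11 and 7.02 in Sham-SCI (1.37-fold, adjusted p = 0.262). Mx1 had 4.88, 5.25 and 5.29 in SCI, against 4.79, 4.32 and 4.75 in Sham-SCI (1.44-fold, adjusted p = 0.281). In these 3 genes every SCI animal lay above every Sham-SCI animal, a separation that 22.3% of all genes showed in either direction.

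Oas1a had 5.33, 6.20 and 6.01 in SCI, against 5.27, 5.54 and 5.25 in Sham-SCI, with SCI replicate 1 among the sham animals (log2 fold change 0.50, SE 0.218, adjusted p = 0.319). Isg15 did not share the direction (-0.07, SE 0.0989, adjusted p = 0.795), nor did Rsad2 (-0.17, SE 0.69, adjusted p = 0.941). No member reached 1.5 fold. Among the other pathway genes 86 of 118 were above 0 (46.2% of all genes, median 0.16). An unadjusted p under 0.05 was reached by 14 of them (14.6% of all genes), and 0 were called (0.401% of all genes). Of the 42 other antiviral genes 35 were above 0, between -0.41 for Oas1k and 0.93 for Slfn2. Macrophage markers were above 0 in 12 of 14 (median 0.47, mean level 8.10 to 8.68 in SCI and 7.08 to 8.92 in Sham-SCI) and muscle fiber markers below 0 in 10 of 12 (median -0.91). Fibroblast markers were above 0 in 10 of 10 (median 1.34). The part of these cell types in the values was not tested.

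Electrical stimulation of the paralyzed muscle was compared with SCI, and all 3 comparisons share the same SCI animals. At 1 day 0 members and 0% of all genes were called, and 1 of 9 members had an unadjusted p under 0.05 (7.28% of all genes). It was Rsad2, with 9.41, 8.12 and 7.45 in SCI-ES 1 day, against 8.04, 5.76 and 6.25 in SCI. One SCI animal lay among the stimulated animals (3.12-fold, log2 fold change 1.64, SE 0.69, unadjusted p = 0.0329, adjusted p = 0.684). Of the members 7 were below 0, and 2 did not overlap, both lower in SCI-ES, whereas 11.4% of all genes did not overlap. Irf7 had 6.96, 7.22 and 6.98 in SCI-ES 1 day, against 7.40, 7.28 and 7.49 in SCI (log2 fold change -0.33, SE 0.19, adjusted p = 0.728). Ifit2 had 6.93, 7.28 and 7.21 in SCI-ES 1 day, against 7.38, 7.40 and 7.76 in SCI (-0.37, SE 0.178, adjusted p = 0.688). Neutrophil markers had mean levels of 5.73, 6.14 and 5.43 in SCI-ES 1 day, against 5.33, 5.24 and 5.24 in SCI. They were above 0 in 10 of 11, with 0 called. In these animals Mx1, Isg15 and Ifit3 differed from SCI by -0.12, -0.15 and 0.01 on the log2 scale. The 9 members ranged between -0.37 for Ifit2 and 1.64 for Rsad2. The part of neutrophils in the levels of the 9 genes was not tested.

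At 3 days of ES 0 members and 0% of all genes were called, 0 members and 3.07% of all genes had an unadjusted p under 0.05, and 0 members and 9.12% of all genes did not overlap with SCI. Ifit2 had 7.65, 8.15 and 7.62 in SCI-ES 3 days, against 7.38, 7.40 and 7.76 in SCI (log2 fold change 0.30, SE 0.178). Rsad2 had 7.37, 7.91 and 7.93 in SCI-ES 3 days, against 8.04, 5.76 and 6.25 in SCI (1.05, SE 0.69). At 7 days 0 members and 0% of all genes were called, 0 members and 2.84% of all genes had an unadjusted p under 0.05, and 0 members and 7.57% of all genes did not overlap. The members' log2 fold changes at 7 days lay between -0.13 for Oas1a and 0.28 for Ifit2, and at both days their adjusted p was 1. The methods' test, which was run on 8 of the members here and not on Isg15, called 0 of them in each comparison of the first experiment.

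The difference between the responses in the 2 experiments was tested on all 33 arrays, as the ES effect (SCI-ES minus SCI) minus the GA effect (GA minus Sham-GA) of the same day. The ES animals were paralyzed and had their tendon cut before stimulation began, whereas GA animals had an intact cord and a fresh cut. Stimulation against overload therefore cannot be told apart from paralysis, time since surgery or experiment. At 1 day 8 of 9 members were below 0 (median -1.05 against 0.00 over all genes), 6 had an unadjusted p under 0.05 (13% of all genes) and 0 were called (0.0554% of all genes). Irf7 had the lowest p (-1.71, SE 0.442, unadjusted p = 7.0e-04, adjusted p = 0.105), followed by Mx2 (-1.60, SE 0.436, adjusted p = 0.112). Isg15 was at -1.05, Ifit3 at -1.36 and Ifit2 at -0.75, and Oas1a at a ratio of 0.501 between the 2 effects, with adjusted p of 0.199 to 0.337, and Rsad2 alone was above 0 (1.12, SE 1.03). These differences rest on the same GA animals as the values at 1 day and are not independent of them. Without GA 1 day replicate 2, 4 members were called (Irf7, Isg15, Mx1 and Mx2) and 0.27% of all genes. Without Sham-GA 1 day replicate 1, 2 members (Irf7 and Ifit3) and 0.706% of all genes were called, and without SCI-ES 1 day replicate 2, 1 member (Mx2) and 0.664% of all genes. At 3 days 0 members and 0% of all genes were called, and 0 members and 9.47% of all genes had an unadjusted p under 0.05. At 7 days 0 members and 0% of all genes were called, and 0 members and 3.14% of all genes had an unadjusted p under 0.05.

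Rsad2 went its own way. Its SD within groups had a median of 0.92 and reached 1.71 in GA 3 days, where the animals had 9.76, 8.01 and 6.34, and it was as low as 0.122 in Sham-GA 7 days (6.22, 5.98 and 6.04). Across the 33 arrays its Pearson correlation with the other 8 members lay between -0.30 (Oas1a) and 0.20 (Ifit3). With 100000 permutations the p of these 8 correlations was not below 0.09.

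Over all 36 pairs of members r lay between -0.30 and 0.90, with a median of 0.48. The median was 0.25 with 2 arrays left out for each pair. Among the other members, the pair with the highest r was Irf7 and Mx1, which varied together across the 33 arrays (Pearson's r = 0.90 and Spearman's rho = 0.75, permutation p = 1.0e-05 for each, the smallest that the permutations can give). Adjusted over the 36 pairs of members, p was 1.4e-04 for r and 2.7e-04 for rho. The relation was also seen within the first experiment (r = 0.84, 15 arrays) and within the second (r = 0.90, 18 arrays), and without GA 1 day replicates 1 and 3, the arrays farthest from the median of Irf7, r was 0.71. Isg15 and Mx1 gave r = 0.84 (permutation p = 2.0e-05, adjusted p = 1.4e-04) but rho = 0.25 (permutation p = 0.17, adjusted p = 0.22). Their r was -0.09 within the first experiment and 0.41 without the same pair of GA animals, so this relation rests on the day 1 animals. All members of 1 array share its RNA extract and hybridization. The permutations did not keep arrays within their groups, so differences between the 11 groups enter these p values.

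The genes most like the members were found by correlation with the mean of the 9 standardized values over the 33 arrays, which is given as a description. They were Herc6 (r = 0.92, rho = 0.77), Oasl (0.87, rho = 0.62), Oasl2 (0.85, rho = 0.65), Slfn4 (0.83, rho = 0.60), Spib (0.83, rho = 0.51) and Il1r2 (0.82, rho = 0.29). The first 4 are themselves interferon-stimulated genes of the lists. Within the first experiment r was 0.57 to 0.69 for these 4, 0.05 for Spib and 0.22 for Il1r2. Within the second it was 0.87 to 0.95 for all 6. Herc6, a ligase of the family that attaches Isg15, had 7.95, 5.99 and 7.44 in GA 1 day, against 6.09, 5.58 and 5.60 in Sham-GA 1 day, the same order of animals as Isg15 within GA (log2 fold change 1.37, SE 0.335, adjusted p = 0.122). Without the 2 arrays farthest from the median of that mean, r was 0.70 for Herc6 and 0.45 for Il1r2, a decoy receptor for interleukin-1 that neutrophils express. After group means were subtracted the closest genes were Herc6 (0.92, rho = 0.83), Nfkbia (0.89, rho = 0.78), Fbxl5 (0.89, rho = 0.72), H3f3b (0.86, rho = 0.78), Oasl2 (0.84, rho = 0.71) and Rig1 (0.83, rho = 0.80). The row labeled Rig1 matched none of the lists. Within the first experiment r was 0.55 for Nfkbia and 0.44 for Fbxl5 and H3f3b, against 0.93, 0.95 and 0.93 within the second. For Herc6, Oasl2 and Rig1 it was 0.82, 0.87 and 0.75 within the first, against 0.93, 0.86 and 0.88. Nfkbia, the inhibitor of NF-κB, had 9.96, 8.37 and 8.77 in GA 1 day, against 9.65, 8.69 and 8.69 in Sham-GA 1 day, with replicate 1 the high animal in both groups (log2 fold change 0.02, SE 0.322).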

How the data were processed

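The values are log2 expression values deposited by the authors, made, per the methods, by RMA in oligo (baseline subtraction, then quantile normalization, then median polish; versions not stated), 1 row per transcript cluster of an Affymetrix rat array. Of 29214 rows 15310 carried 1 gene symbol and were used, and 323 with several and 13581 with none were not. The brightest row stood for each of 527 genes that had several. Depth has no counterpart on arrays, and 3 animals a group limit the precision. Group means were fitted with limma 3.58.1 (lmFit, eBayes) in R 4.3.3 on the 15, 18 or all 33 arrays, for genes with a mean of at least 3. Each gene had a single estimate of spread over all groups of a fit, so an SE is not that of the groups compared. P values were adjusted by Benjamini and Hochberg over all genes tested, and a call needed an adjusted p under 0.05 and at least 1.5 fold. The fits were also run on simulated data in which each gene had the same spread in every group. That run does not cover the wider spread seen in GA 1 day. Members and lists were chosen with earlier results of these data known. All 9 members are named. The lists are given by counts or mean levels, with range ends for pathway lists in GA versus Sham-GA at 1 day and some lists elsewhere. Called pathway genes are named. Exceptions (Slfn4, Ifnb1, Nfkbia, Il15, Il18, Camp, Elane and C1q gene values) were chosen after they were seen. Alternatives were other filters, a second quantile normalization, a trended robust prior, averaged rows, the 2 groups alone, the test across groups that the methods give, a block for the replicate number, and leaving out single arrays. Summaries used Python 3.11.15, pandas 2.3.3, numpy 2.4.6, scipy 1.17.1 and matplotlib 3.10.9. The days of the sample labels were used; a design note with the series gives 2 days in place of 3, and ablation on both sides. Scan dates and array batches are not given in the sources used here.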

Additional observations from a re-analysis of the deposited data

How the results depend on the processing

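Over 1735 refitted fold changes of the members, 96 had the other sign, the largest of them 0.83 in size in the main analysis, and none of these was called. For GA versus Sham-GA at 1 day the count of called members was 1 with the methods' test across groups, and 0 to 4 when 1 array was left out. For the ES effect minus the GA effect at 1 day it was 0 to 4 when 1 array was left out. In every other comparison and setting run the count was 0.

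The count of all genes called was less stable. With 1 array left out it was 5 to 65 in SCI versus Sham-SCI (58 with all arrays), 0 to 27 in SCI-ES 1 day versus SCI (0), 1 to 182 in GA versus Sham-GA at 1 day (8), 0 to 1286 at 3 days (0), 0 to 493 for the mean GA effect (0), 0 to 3 for the GA effect at 7 days minus that at 1 day (0), 455 to 902 in Sham-GA 7 days versus 1 day (949), 1 to 102 for the ES minus the GA effect at 1 day (8) and 0 to 1 at 7 days (0). The methods' test called 368 genes in SCI versus Sham-SCI, 117, 42 and 26 in SCI-ES at 1, 3 and 7 days, and 445, 632 and 147 in GA at 1, 3 and 7 days. With the 2 groups alone the count was 154 in SCI versus Sham-SCI, 0 in GA at 1 day and 1 in GA at 7 days, and a second quantile normalization gave 13 in GA at 1 day. The sources used here do not say whether animals with the same replicate number were paired. The correlation of same-numbered deviations in GA at 1 day was 0.61, 0.42 and -0.03, and in the other comparisons it lay between -0.72 and 0.55. With the replicate number as a block, 26 genes were called in SCI versus Sham-SCI and 1 in GA at 1 day, and 0 members in any comparison. The number of arrays limits what can be seen at 3 animals a group.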
